A study of Mus musculus with 2 samples.

Results

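The Rab genes were taken as every protein-coding gene of the mm10 gene models whose symbol is Rab followed by a number and at most a letter and a further digit. The rule found 59 of 21853 protein-coding genes. It used no measured value, but was chosen with earlier results of these data known. Their open chromatin was read from ATAC-seq peak lists of monocytes, white blood cells that leave the circulation to become macrophages and other phagocytes. The primary cells were collected from blood of C57BL/6J mice, adults aged 5 to 6 weeks, and the labels name no treatment or altered gene. All data belong to a single group with 2 biological replicates of 50000 cells apiece, and no control samples were part of the design. Both replicates carry the same donor identifier and sex was not collected, so whether they are separate animals is unknown and the spread between them may be technical.

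Rab proteins are small GTPases that switch between an active form bound to GTP and an inactive form bound to GDP. Each of them marks particular membranes of the cell, where the active form recruits effectors that move, tether or fuse vesicles. In monocytes and macrophages they organise the uptake of particles, the ripening of phagosomes into acidic, lysosome-like compartments, the return of receptors to the surface and the release of stored or newly made proteins. Exchange factors load a Rab protein with GTP, GTPase-activating proteins return it to the GDP form, and a lipid anchor added by prenylation holds it to the membrane.

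In ATAC-seq the Tn5 transposase inserts adapters into DNA that is not wrapped in nucleosomes, and a peak marks a place with more insertions than its surroundings. Each peak carries a fold enrichment over background, the authors' own value, which describes a peak within its list. A gene was called open at its promoter where a region of merged peaks lay within 1 kb of the start of a protein-coding transcript (TSS). A region farther from every such start was called distal and given to the gene with the nearest one within 100 kb, which does not show that it acts on that gene. Fewer cells with a region open and a less open region in every cell cannot be told apart in these lists. Read counts are not part of these lists, which leaves library depth unknown, and a missing region may lie below what it could show.

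The conservative set, made by the authors from both replicates, held 28438 regions. The authors' looser pseudoreplicated sets, called in each replicate alone, held 39579 regions for replicate 1 and 39886 for replicate 2. Of 10 monocyte marker genes, 9 had an open promoter in the conservative set, among them Csf1r, Cx3cr1, Itgam and Spi1. The exception was Ccr2. Among markers of other blood cells, promoters were open at 2 of 6 for B cells (Cd79b and Pax5), 1 of 6 for T cells (Cd3d), 1 of 5 for NK cells (Prf1), 1 of 5 for erythroid cells (Klf1), 0 of 5 for neutrophils and 0 of 4 for platelets. Their fold enrichments lay between 3.89 at Cd79b and 12.1 at Cd3d, while Cd3e, Cd3g, Cd4 and Cd8a held no promoter region. Of 5 markers of unrelated tissues, 0 had an open promoter. Distal regions were found at 7 of the 10 monocyte markers, 3 of 6 for B cells, 2 of 6 for T cells, 3 of 5 for NK cells, 3 of 5 for neutrophils, 2 of 4 for platelets, 0 of 5 for erythroid cells and 0 of 5 for unrelated tissues, beside 33.6% of all genes. The NK cell marker Klrb1c had 7, more than any monocyte marker, of which Csf1r and Cx3cr1 had the most with 5 each. The part that other blood cells played in the Rab regions was not tested.

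In the conservative set, 43 of the 59 Rab genes had an open promoter, where 46.6% of all protein-coding genes did. Replicate 1 had an open promoter at 45 Rab genes, beside 50.5% of all genes, and replicate 2 also at 45, beside 51.3%. At 44 genes the promoter was open in both replicates. Of the 16 genes without an open promoter in the conservative set, Rab4a, Rab7b, Rab19, Rab23, Rab27b and Rab38 had a promoter region in the loosest set of the series, the replicated peaks. The other 10 (Rab3c, Rab6b, Rab9b, Rab15, Rab17, Rab25, Rab33a, Rab34, Rab39b and Rab40b) had none there either. A distal region was assigned to 30 Rab genes in the conservative set, beside 33.6% of all genes. The replicates' own sets gave 40 Rab genes with a distal region in replicate 1, beside 41.7%, and 34 in replicate 2, beside 41.5%. Thus a larger share of Rab genes than of all genes was open at the promoter in each of these 3 sets (the conservative set and that of each replicate), a description that carries no test. Among the Rab genes, 24 had both an open promoter and a distal region, 19 an open promoter alone, 6 a distal region alone and 10 neither. Among all genes, 4605 of 10174 with an open promoter (45.3%) and 2737 of 11679 without one (23.4%) had a distal region. Neither was found at 8942 of all 21853 genes.

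The median fold enrichment of the open Rab promoters was 9.41 (lowest 4.78, highest 13.3), against 8.34 for all 10174 genes with an open promoter. In the replicates' own sets it was 8.90 and 8.44, against 7.51 and 7.40 for all genes. The regions had a median width of 713 bp, from 267 bp at Rab35 to 1638 bp at Rab28, where the median of all genes was 680 bp. The summit, the point of strongest signal, lay at a median of 51 bp upstream of the nearest start. It reached from 570 bp upstream at Rab27a to 67 bp downstream at Rab35.

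**Figure D1:**
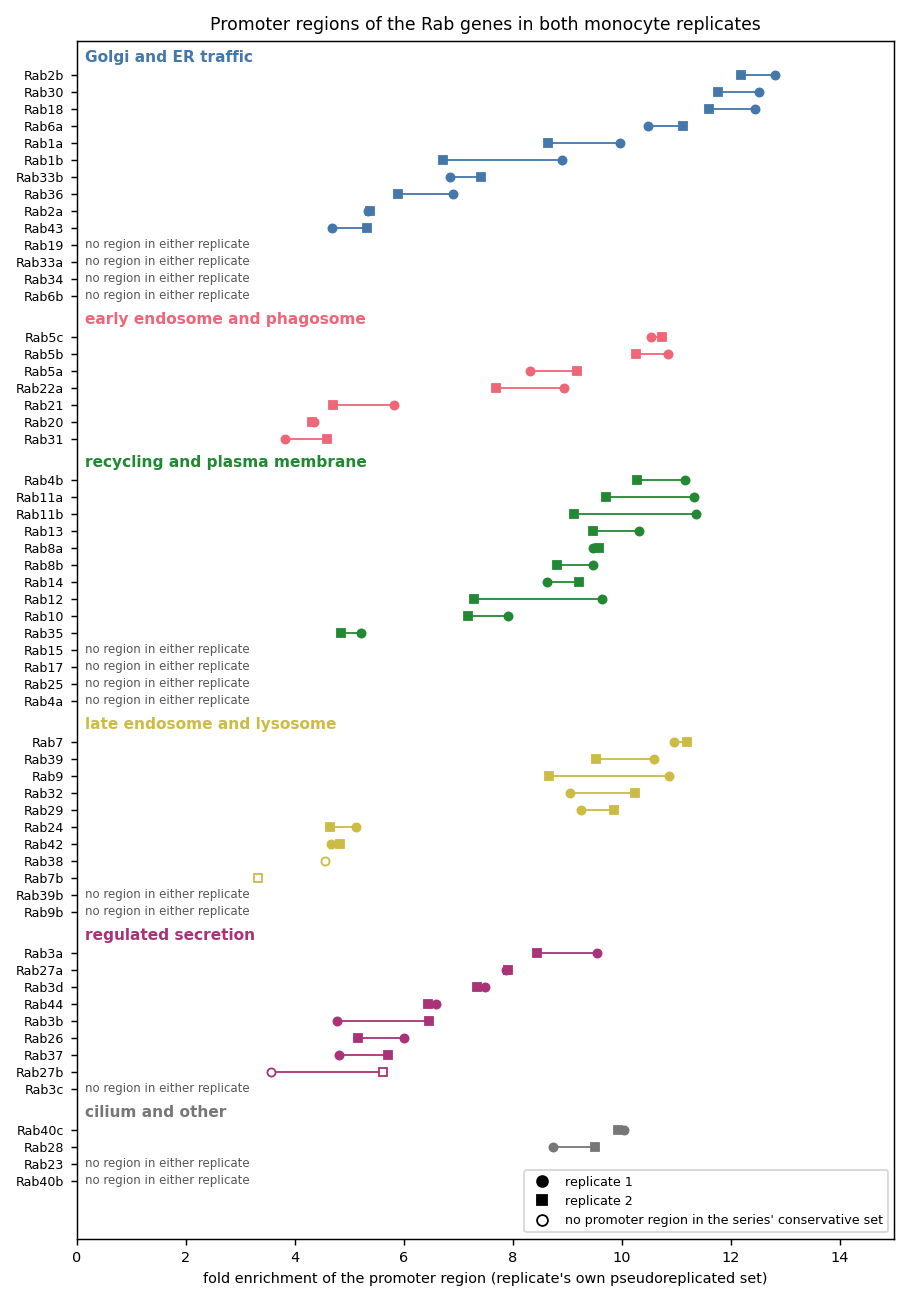
Fold enrichment of the promoter region of each Rab gene (x axis, linear) in replicate 1 (circles) and replicate 2 (squares), grouped by the membrane at which the protein acts. Filled symbols mark promoters open in the conservative set; Rab2b, Rab30 and Rab18 stand highest, and 13 genes had no region in either replicate.

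The Rab genes of the Golgi apparatus and the endoplasmic reticulum included the strongest single promoters, Rab2b, Rab30 and Rab18, and also some genes with none. Of these 14 genes, 10 had an open promoter, beside 46.6% of all genes. Distal regions were found at 6 (42.9%, against 33.6% of all genes), 8 regions in all. The 10 open promoters had a median fold enrichment of 8.88 in the conservative set, against 9.41 for all open Rab promoters. Rab2b, which acts in traffic between the Golgi and the endoplasmic reticulum, had the highest fold enrichment of the family, 13.3 in the conservative set, at chr14:52278907-52279744. Its replicates stood at 12.8 and 12.2. The region also lies at the start of Tox4, which runs the other way. Its paralog Rab2a reached 5.34 in replicate 1 and 5.39 in replicate 2, so the pair differed by far more than either gene's replicates did.

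Rab30, a Golgi protein that also takes part in autophagy of bacteria, stood at 12.9 in the conservative set (12.5 and 11.8 in the replicates) at chr7:92741050-92741774. Rab18, found on lipid droplets and the endoplasmic reticulum, stood at 12.9 as well, with 12.4 in replicate 1 and 11.6 in replicate 2. Rab6a, which returns cargo from endosomes through the Golgi, had 11.6 (10.5 and 11.1) at chr7:100606899-100608053, a region shared with the start of Mrpl48. Both replicates of these 4 genes lay above all values of the other Golgi genes, of which Rab1a stood at 9.96 and 8.65 and Rab1b at 8.90 and 6.72. Rab1a and Rab1b act in transport from the endoplasmic reticulum to the Golgi. Rab33b, Rab36 and Rab43 were open at lower values, between 4.68 and 7.43 in the replicates. Rab43 at chr6:87811707-87812338 had 4.68 in replicate 1 and 5.33 in replicate 2. Rab6b, Rab19, Rab33a and Rab34 had no promoter region in any of the 3 sets. At Rab19 a region counted as distal came within 1.056 kb of the start, just outside the 1 kb limit.

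All 7 Rab genes of the early endosome and the phagosome were open at the promoter, beside 46.6% of all genes. By CpG content, compared below, all 7 fall in classes where 51.2% to 79.0% of all genes were open. The values of the 7 covered a wide range. The 3 genes of Rab5, the switch that controls fusion of early endosomes and newly formed phagosomes, lay in the upper part. Rab5c at chr11:100737958-100738633 had 11.3 in the conservative set, with 10.5 and 10.7 in the replicates. Rab5b at chr10:128695629-128696819 had 10.5, with 10.8 and 10.3, and Rab5a had 9.11, with 8.31 and 9.18. The values of Rab5b and Rab5c overlapped between replicates, and both replicates of Rab5a lay lower. Rab22a, which sorts cargo for recycling from early endosomes, had 8.95 in replicate 1 and 7.69 in replicate 2.

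The 3 others had weak promoters. Rab21, which traffics integrins, stood at 5.82 and 4.71. Rab20, a Rab of maturing phagosomes, had the lowest value of the open family in the conservative set, 4.78 at chr8:11478352-11478780, with 4.35 and 4.33 in the replicates. Rab31, which carries cargo between the Golgi and endosomes, had 5.01 at chr17:65772411-65772916, with 3.82 and 4.60. The promoters of Rab20 and Rab31 were missing from both replicates' own stricter sets, which the authors thresholded by IDR, a measure of how well the ranks of peaks repeat. The same 2 genes held 7 of the group's 9 distal regions, 3 at Rab20 and 4 at Rab31.

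The Rab genes of recycling endosomes and the plasma membrane numbered 14, of which 10 were open, beside 46.6% of all genes. Rab4b, of fast recycling, had 11.0 at chr7:27178289-27179254, with 11.2 and 10.3 in the replicates. Rab11a, the marker of the recycling endosome, had 11.3 and 9.71, and Rab11b 11.4 and 9.12. The order of these 3 genes differed between the replicates. Rab8a and Rab8b, which act in exocytosis and cell shape, stood close together at 9.47 and 9.59 and at 9.47 and 8.82. Rab13, which acts at cell junctions and the cell surface, had 10.3 and 9.48 in a region shared with the start of the ribosomal gene Rps27. Rab14, of phagosomes and recycling, Rab12, which acts in the degradation of the transferrin receptor, and Rab10, which brings cargo to the surface, lay between 7.17 and 9.64, and Rab35, of fast recycling, lay apart at 5.22 and 4.86. Rab15, Rab17, Rab25 and Rab4a had no promoter region in the 3 sets. Rab17 and Rab25 are known from epithelial cells. The group had the most distal regions by count, 16 at 9 genes (64.3% of its genes, against 33.6% of all genes). Per gene it had 1.14, against 0.745 for all genes. That was below the 1.29 of the early endosome group and the 1.18 of the late endosome group.

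Of 11 Rab genes of late endosomes, lysosomes and related organelles, 7 were open, beside 46.6% of all genes. Rab7, which directs late endosomes and phagosomes to lysosomes, had 11.9 at chr6:88045059-88045652, with 11.0 and 11.2 in the replicates. Rab39, which acts in the ripening of phagosomes, had 10.6 and 9.53. Rab9, of transport from late endosomes to the Golgi, had 10.9 and 8.67. Rab32, of lysosome-related organelles, had 9.06 and 10.2, and Rab29, a partner of the kinase Lrrk2, 9.26 and 9.86. Between the replicates these 4 genes changed order. Rab24, which acts in autophagy, was lower at 5.13 and 4.65 (chr13:55321871-55322353), as was Rab42 at 4.67 and 4.82 (chr4:132303053-132303513). Rab9b and Rab39b had no promoter region in any of the 3 sets. Rab38, the close relative of Rab32, had one in replicate 1 alone, with a fold enrichment of 4.55. Rab7b, which acts in transport from endosomes to the Golgi, had one in replicate 2 alone, at 3.33.

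Of the 9 Rab genes of regulated secretion, 7 had an open promoter, beside 46.6% of all genes. The 7 had a median fold enrichment of 6.98 in the conservative set, the lowest of the 6 role groups. Rab3a, known from synaptic vesicles, stood highest at 9.55 and 8.44. Rab27a, which docks secretory lysosomes and melanosomes, had 7.88 and 7.92. Rab3d had 7.48 and 7.34, and Rab44, a large Rab protein of mast cell granules, 6.60 and 6.44. Rab26, Rab37 and Rab3b lay between 4.77 and 6.47. The Rab37 region, with 4.81 and 5.72, lies at chr11:115153583-115154278, at an internal start of the gene and not at its most upstream one. Rab3c had no promoter region in the 3 sets. Rab27b, the relative of Rab27a, had one in both replicates, at 3.57 and 5.63, yet none in the conservative set. Of the remaining 4 genes, Rab28 (8.73 and 9.51) and Rab40c (10.04 and 9.94) were open, while Rab23, a regulator of hedgehog signalling at the cilium, and Rab40b had no promoter region in the 3 sets.

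The 44 promoters found in both replicates had closely similar values. The log2 difference, replicate 2 less replicate 1, had median -0.05 and SD 0.21 at Rab genes, and median -0.01 and SD 0.23 over all 10627 genes with a promoter in both. Across the 44 genes the log2 values had a Pearson correlation of 0.912 and a Spearman correlation of 0.883, and across all genes 0.898 and 0.907. Genes are not independent replicates and share the library, so these are descriptions. Replicate 1 was higher at 26 Rab genes (59.1%, against 52.2% of all genes) and replicate 2 at 18. Only Rab27b, with a difference of 0.66, lay more than 2 SD of all genes from their median. Rab3b, at 0.44, was the next toward replicate 2, and Rab1b and Rab12, both at -0.40, lay farthest toward replicate 1. The replicates' stricter sets each held 38 open Rab promoters (64.4%, against 39.3% of all genes in replicate 1 and 40.7% in replicate 2), 37 in both. Rab20, Rab31, Rab42 and Rab3b were missing from both, Rab43 from that of replicate 1 and Rab3d from that of replicate 2.

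**Figure D2:**
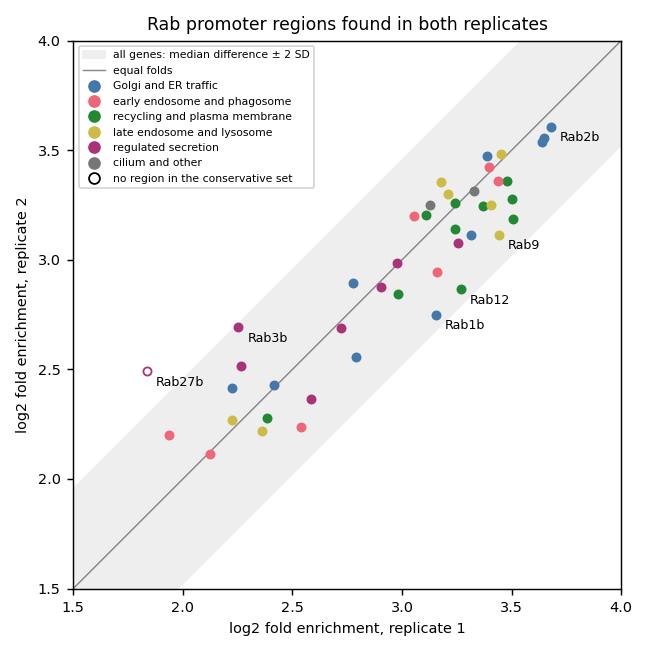
Log2 fold enrichment of the promoter region in replicate 1 (x axis) and replicate 2 (y axis) for the 44 Rab genes with a region in both, coloured by role. The grey band is the median difference of all genes ± 2 SD, and Rab27b, the open symbol, is the 1 gene outside it.

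Vertebrate promoters with many CpG dinucleotides are often open in many cell types, so the Rab genes were set beside genes of similar CpG content. The CpG ratio, the observed number of CpG over the number its base composition would give, was taken within 500 bp of the most upstream coding start, and all genes were parted into 5 classes of equal size. No Rab gene fell in the poorest class, where 8.88% of all genes were open. In the second class 2 of 7 Rab genes were open, Rab26 and Rab44, beside 20.1% of all genes. In the third class 11 of 16 were open, beside 51.2%, and in the fourth 18 of 23, beside 73.6%. In the richest class 12 of 13 were open, beside 79.0%, and Rab23 was the exception with a ratio of 1.00. In each of these 4 classes the Rab share lay above that of all genes, in most of them by few genes. At the shares of all genes the classes would hold 1.41, 8.20, 16.9 and 10.3 open Rab genes, where 2, 11, 18 and 12 were found. The difference was not tested. The median ratio was 0.741 for the 43 open genes and 0.557 for the 16 others. A gene could be open at another start than the one whose ratio was taken, as Rab37 was in the third class.

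**Figure D3:**
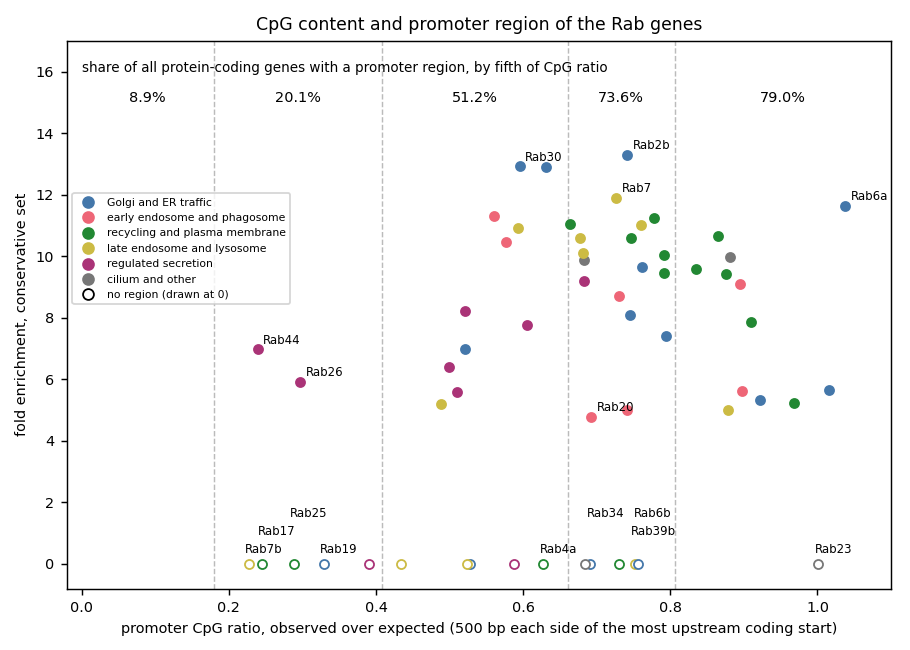
Promoter CpG ratio (x axis) and fold enrichment in the conservative set (y axis, linear) of the 59 Rab genes, coloured by role, with genes without a promoter region drawn as open symbols at 0. Dashed lines part all protein-coding genes into 5 classes of equal size, with the share open of all genes above each; 10 of the 16 Rab genes without a region lie in the second class or the third, while Rab23 lies at 1.00.

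Rab genes that share a number are paralogs, and 14 numbers have more than 1 gene. All genes were open in 5 of these families, Rab1, Rab2, Rab5, Rab8 and Rab11. In the other 9, 1 gene lacked a promoter region in the conservative set: Rab3c, Rab4a, Rab6b, Rab7b, Rab9b, Rab27b, Rab33a, Rab39b and Rab40b. Their 11 open partners stood between 6.40 at Rab3b and 11.9 at Rab7. Rab6a, Rab4b, Rab39 and Rab9 lay between 10.9 and 11.6, Rab40c at 9.99, Rab3a at 9.19 and Rab27a at 8.22. Rab3d stood at 7.76 and Rab33b at 7.41. Of the 4 genes on the X chromosome, Rab9 was open and Rab9b, Rab33a and Rab39b were not, and 29.4% of all 948 X-linked genes were open. Promoters shared with another gene made up 3 of 43 open Rab promoters, 6.98%, against 22.9% of all open promoters.

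Some of the paralogs that differ in state are shown by the 200 bases before a first exon, to compare the CpG content of these pairs. The sequences are from the RefSeq promoter table on GRCm38.p6, which held 48 of the 59 genes, and are written 5′ to 3′ on the strand of the gene with each CpG in capitals. All 6 lie on the minus strand. They are Rab39 at chr9:53706233-53706432 and Rab39b at chrX:75578232-75578431, Rab40c at chr17:25919728-25919927 and Rab40b at chr11:121388252-121388451, and Rab3d at chr9:21918193-21918392 and Rab3c at chr13:110280186-110280385. The Rab3c stretch precedes the start used by RefSeq and lies in the first intron of longer transcripts.
Rab39: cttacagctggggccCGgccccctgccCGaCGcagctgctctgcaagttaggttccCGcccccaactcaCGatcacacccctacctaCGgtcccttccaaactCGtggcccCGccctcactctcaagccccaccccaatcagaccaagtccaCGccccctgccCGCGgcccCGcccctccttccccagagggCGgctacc
Rab39b: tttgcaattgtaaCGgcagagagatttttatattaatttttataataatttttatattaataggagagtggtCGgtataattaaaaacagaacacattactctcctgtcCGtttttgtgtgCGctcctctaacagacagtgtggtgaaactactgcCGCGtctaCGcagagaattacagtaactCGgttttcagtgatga
Rab40c: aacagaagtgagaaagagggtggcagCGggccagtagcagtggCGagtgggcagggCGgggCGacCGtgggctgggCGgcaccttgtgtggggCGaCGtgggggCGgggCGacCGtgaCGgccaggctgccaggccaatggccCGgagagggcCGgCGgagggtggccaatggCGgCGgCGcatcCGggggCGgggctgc
Rab40b: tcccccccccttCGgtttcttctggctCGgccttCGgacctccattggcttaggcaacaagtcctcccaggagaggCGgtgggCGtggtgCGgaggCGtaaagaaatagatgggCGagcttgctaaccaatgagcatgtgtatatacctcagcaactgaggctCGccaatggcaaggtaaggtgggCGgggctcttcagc
Rab3d: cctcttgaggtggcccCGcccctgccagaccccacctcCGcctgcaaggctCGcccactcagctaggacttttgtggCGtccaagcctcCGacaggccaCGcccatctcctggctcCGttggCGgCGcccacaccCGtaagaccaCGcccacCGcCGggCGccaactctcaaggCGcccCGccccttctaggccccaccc
Rab3c: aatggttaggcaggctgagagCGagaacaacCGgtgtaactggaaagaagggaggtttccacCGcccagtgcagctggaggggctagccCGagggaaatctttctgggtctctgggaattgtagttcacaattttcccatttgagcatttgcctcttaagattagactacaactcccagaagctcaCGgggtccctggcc

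In each of these 3 pairs the open gene had more CpG in its stretch. The pairs were picked from the 9 families that differ in state without a fixed rule, so they do not describe the others. Rab39 had 13 and Rab39b 8, Rab40c 20 and Rab40b 10, and Rab3d 16 and Rab3c 5. Over the window used for the CpG ratio, around the most upstream coding start, Rab39 had 0.761 and Rab39b 0.752, so that pair differed little. Rab40c had 0.881 and Rab40b 0.685, while Rab3d had 0.605 and Rab3c 0.587. For Rab3c that window does not hold the printed stretch, so its count and its ratio describe different bases. Over that window the open genes had the higher ratio in 8 of the 9 families that differ in state. The exception was Rab3, where Rab3b was open with 0.499, below Rab3c.

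Short fixed motifs were searched on both strands within 100 bp of the summit of each region, and a match is a description of the letters, not a bound site. The 45 Rab promoter regions were compared with all 10589 promoter regions. CCAAT, the box of the factor NFY, was found in 20 (44.4%), against 34.8%. GGGGCGGGG, a site of SP1 and its relatives, was found in 11 (24.4%), against 15.8%. The ETS string CCGGAAGT was found in 4 (8.89%, against 8.27%), at Rab11a, Rab24, Rab2a and Rab36. The E-box CACGTG, the core of the site for lysosomal gene regulators of the TFE family, was also found in 4 (8.89%, against 8.83%), at Rab20, Rab21, Rab24 and Rab31. AAGATGGCG, for YY1, was found in 3 (6.67%, against 2.98%), at Rab13, Rab22a and Rab28. GAGGAAGT for PU.1 was found in 2 (4.44%, against 3.97%), at Rab2b and Rab32. TTGCNNAA for C/EBP was found in 3 (6.67%, against 6.22%), at Rab1b, Rab30 and Rab44. TGANTCA for AP-1, TGTGGTTT for RUNX, GAAANNGAA for IRF, GCATGCGC for NRF1 and CCACNAGGG for CTCF were found in 0, against 1.08% to 4.49% of all promoters. The ETS and PU.1 strings share their last letters but no match counts for both. Within 150 bp the order of the shares turned for the ETS string (8.89% against 9.15%) and the E-box (11.1% against 11.2%). It turned for the PU.1 string as well (4.44% against 4.73%).

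The 30 Rab genes with distal regions held 55 of them, 0.932 per Rab gene against 0.745 per gene overall. The stretch in which a start was the nearest within 100 kb had a median of 44.2 kb for the Rab genes and 46.4 kb for all genes. Genes with a longer stretch held more regions. Of the 29 Rab genes above the median of all genes, 21 had a distal region (72.4%, against 42.5% of all genes above it), with 1.41 regions per gene against 1.12. Of the 30 at or below it 9 had one, beside 24.7% of all such genes, with 0.467 regions per gene against 0.365. All 6 Rab genes with 3 or more regions lay above the median, as did 1686 of the 1982 genes with 3 or more overall. Some long stretches held none, as at Rab18 with 181 kb and Rab27b with 204 kb. This split was added after the values were seen. Replicate 1 gave 85 and replicate 2 gave 77 distal regions in the looser sets. Of the 55, 48 overlapped a region of both replicates (87.3%, against 87.9% of all distal regions), 3 of replicate 1 alone, 3 of replicate 2 alone and 1, upstream of Rab35, of neither. Their median fold enrichment was 6.25 and their median width 381 bp, against 6.03 and 378 bp for all distal regions. The summits lay from 1.70 kb to 95.8 kb from the nearest start, with a median of 14.4 kb.

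By place, 22 of the 55 lay in an intron of their own gene, 20 between protein-coding genes, 7 in an intron of another gene, 3 in an exon of their own gene and 3 in an exon of another. Rab7b had the most, 5, although its promoter was not open in the conservative set. Of these, 3 lay in its own introns and 2 upstream in the neighbouring gene Ctse, which encodes cathepsin E. The strongest, at chr1:131700453-131700911 and 11.8 kb downstream of the start, had 6.83 in replicate 1 and 8.36 in replicate 2. Rab31 had 4, all in its own introns between 42.6 and 53.9 kb downstream of the start. The strongest of them, at chr17:65724006-65724633, had 9.29 and 8.05, above its own promoter in both replicates.

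Rab7, Rab8b, Rab10 and Rab20 had 3 each, where 9.07% of all genes had 3 or more. At Rab20 the strongest region, at chr8:11403450-11404333, lay 74.7 kb downstream in an intron of the collagen gene Col4a2, with 9.21 and 8.38, and exceeded the Rab20 promoter in both replicates. A second one was in an intron of Col4a2 and the third in an intron of Rab20. All 3 regions of Rab8b lay in its own introns, the strongest at chr9:66886808-66887262 with 8.39 and 8.78. At Rab7, 2 lay in its own introns, with 6.45 and 5.75 and with 6.41 and 7.32, and 1 upstream with 6.23 and 5.47. At Rab10, which also had an open promoter, 2 lay in its own introns and 1, with 5.70 and 5.69, was 74.6 kb downstream of the start. A further 10 genes had 2 (Rab3d, Rab8a, Rab14, Rab33b, Rab35, Rab37, Rab39, Rab42, Rab43 and Rab44), 14 had 1 and 29 had none.

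**Figure D4:**
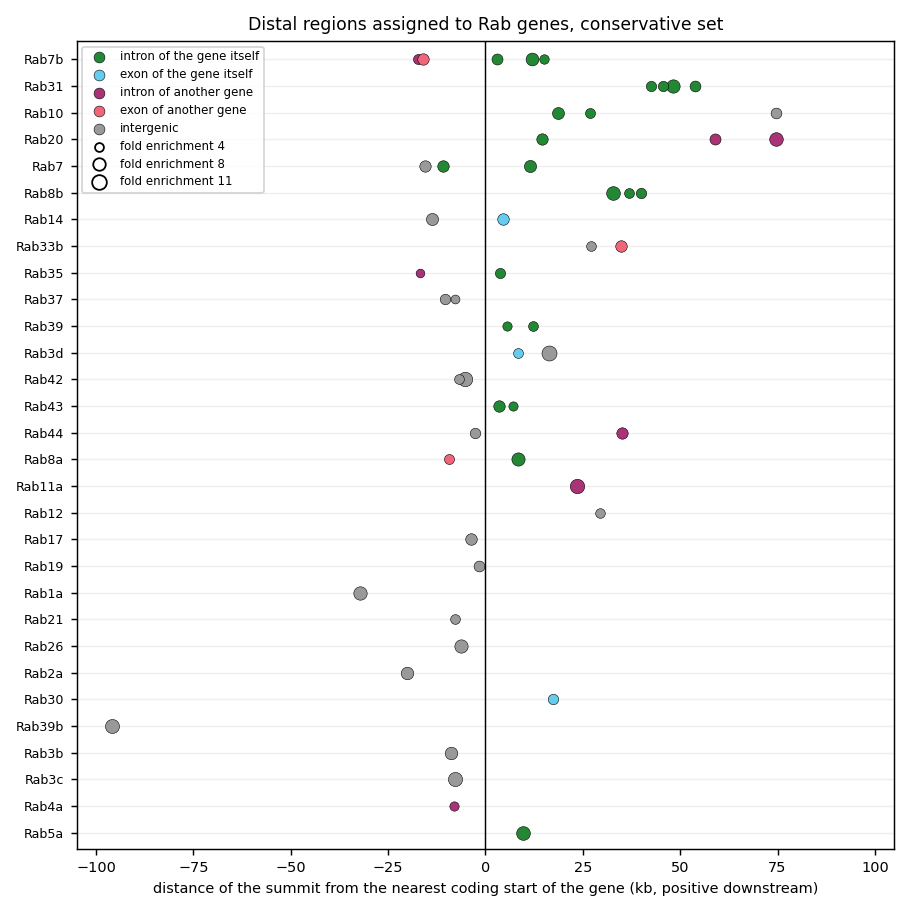
Distal regions of the 30 Rab genes that had any, by distance of the summit from the nearest coding start in kb (x axis, positive in the direction of transcription); the area of a point follows fold enrichment and the colour gives the place. The 4 regions of Rab31 lie together within its introns, and the 1 region given to Rab39b lies 95.8 kb upstream.

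The strongest distal regions belonged to other genes. The highest fold enrichment, 11.5, was at chr9:21901373-21901815, 16.4 kb downstream of the Rab3d start between genes, with 11.0 in replicate 1 and 9.92 in replicate 2. By the mean of the replicates the next was a region 5.23 kb upstream of Rab42 at chr4:132308462-132309053, with 10.01 and 9.81, against 4.67 and 4.82 at the Rab42 promoter. That region lies within 1 kb of the start of Snhg12, a long noncoding RNA gene that hosts small nucleolar RNAs, as does the other distal region given to Rab42. Starts of noncoding genes were not counted as promoters, so these regions count as distal to Rab42. Of the 55 distal Rab regions, 4 lay within 1 kb of such a start (7.27%, against 7.15% of all distal regions), a count added after the values were seen. The other two were given to Rab10, near its antisense gene Rab10os, and to Rab43. A region at chr9:64702855-64703396 in an intron of Megf11, 23.6 kb from the Rab11a start, had 9.61 and 9.25. Regions given to Rab39b and Rab3c, whose promoters were not open, had 10.3 and 9.20 and 9.43 and 8.98. The distance to Rab39b was 95.8 kb and to Rab3c 7.75 kb. The other genes with a distal region and no open promoter had weaker ones. A region 3.79 kb upstream of Rab17 had 6.94 and 5.65, one 1.70 kb upstream of Rab19 had 5.29 and 6.46, and one 7.96 kb upstream of Rab4a had 4.55 and 4.49. These distances are those of the summits. The nearest base of the Rab19 region lay 1.056 kb from the start, just outside the 1 kb limit. With a promoter window of 2 kb Rab19 counted as open at the promoter.

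The 200 bases around the summits of the strongest distal regions by mean over both replicates are shown to compare their letters, leaving out the Rab42 region because it overlaps an exon of Snhg12. They are written on the plus strand of GRCm38.p6 with matches to the motifs above, on either strand, in capitals: Rab3d at chr9:21901554-21901753, Rab39b at chrX:75673946-75674145, Rab11a at chr9:64702997-64703196 and Rab3c at chr13:110288550-110288749.
Rab3d: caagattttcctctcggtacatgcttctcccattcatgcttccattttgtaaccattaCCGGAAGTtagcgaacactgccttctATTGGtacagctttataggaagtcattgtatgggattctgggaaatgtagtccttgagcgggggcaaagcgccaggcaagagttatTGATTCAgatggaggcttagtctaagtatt
Rab39b: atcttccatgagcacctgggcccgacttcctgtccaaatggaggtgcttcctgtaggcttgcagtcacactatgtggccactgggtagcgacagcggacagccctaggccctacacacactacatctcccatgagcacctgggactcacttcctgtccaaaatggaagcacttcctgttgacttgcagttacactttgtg
Rab11a: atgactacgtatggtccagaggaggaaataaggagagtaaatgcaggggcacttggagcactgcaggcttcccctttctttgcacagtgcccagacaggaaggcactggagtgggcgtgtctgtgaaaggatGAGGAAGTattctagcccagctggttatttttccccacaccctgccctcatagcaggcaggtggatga
Rab3c: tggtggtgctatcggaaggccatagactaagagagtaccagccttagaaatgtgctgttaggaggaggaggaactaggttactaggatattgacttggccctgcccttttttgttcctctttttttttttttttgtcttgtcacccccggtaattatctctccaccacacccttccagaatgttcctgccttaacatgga

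The Rab3d region held an ETS, an AP-1 and an NFY match, and the Rab11a region a PU.1 match. No motif of the list was found in the Rab39b and Rab3c windows, which says nothing of other motifs or factors. Over all 55 distal Rab regions the PU.1 string was found in 9 (16.4%, against 11.6% of all 16278 distal regions). They belonged to Rab11a, Rab2a, Rab31, Rab35, Rab39, Rab43 and Rab7b. PU.1, encoded by Spi1, is the ETS factor that directs development of monocytes. The C/EBP string was found in 8 (14.5%, against 13.3%), the AP-1 string in 6 (10.9%, against 11.1%) and the IRF string in 6 (10.9%, against 8.10%). For C/EBP and AP-1 the order of the shares turned with the window. The C/EBP string was in 3.64% against 7.38% within 50 bp and in 14.5% against 17.4% within 150 bp. The AP-1 string was in 7.27% against 6.73% and in 14.5% against 14.1%. The NFY string was found in 13 (23.6%, against 22.0%), but within 150 bp in 27.3% against 30.8%. The RUNX string was found in 0, against 4.08%, and the CTCF string in 1 (1.82%, against 4.52%).

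The distal regions of open genes were then set against the strength of their promoters, with all open genes parted into 4 classes of equal size by promoter fold enrichment. From the weakest class to the strongest, 10 of 11, 4 of 7, 6 of 12 and 4 of 13 Rab genes had a distal region. Among all genes these shares were 58.4%, 48.0%, 40.4% and 34.3%. The share was thus highest in the weakest class and lowest in the strongest both for Rab genes and for all genes, and the difference between the classes was not tested. In the same order, the stretch nearest to a start had a median of 50.6, 37.2, 48.5 and 36.9 kb for the Rab genes. The classes thus also differed in that measure. The exception in the weakest class was Rab24. In the strongest, Rab7, Rab11a, Rab30 and Rab39 had distal regions.

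The genes that control Rab proteins were read in the same way, from lists of 106 annotated genes. Their promoters were open at 78 (73.6%) and 55 (51.9%) had a distal region, beside the 46.6% and 33.6% of all genes. These regulators had a median CpG ratio of 0.739, against 0.561 for all genes. Their stretch nearest to a start had a median of 62.7 kb, against 46.4 kb. The lists were not matched to all genes by either measure. All 7 genes of prenylation and membrane extraction were open. Rabif, a chaperone of nucleotide-free Rab proteins, stood highest at 9.96 in replicate 1 and 11.8 in replicate 2, followed in the conservative set by the escort proteins Chm and Chml at 10.6 and 10.3. Gdi2, which extracts Rab proteins bound to GDP, had 3 distal regions, the most of that list.

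Of 29 exchange factors, 24 were open. The highest values were those of Dennd6b at 12.8, of Ccz1, part of the activator of Rab7, at 12.4, and of Rabgef1, an activator of Rab5, at 11.9. Rin2 and Rin3, which act on Rab5 and its relatives, had 11 and 9 distal regions and Dennd4a had 6. The Rin2 promoter was open in none of the 3 sets, and Rin1 had neither a promoter nor a distal region. Of 30 GTPase-activating proteins, 26 were open, led by Rabgap1 at 15.0, Tbc1d10a at 14.0 and Rab3gap1 at 13.6. Usp6nl, which acts on Rab5, had 8 distal regions and no promoter region in the conservative set, though it had 4.82 and 4.13 in the replicates. Tbc1d1 and Tbc1d2b had 7 each, and Tbc1d4 and Tbc1d24 had no region in the conservative set.

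Of 40 effectors, 21 were open (52.5%, near the 46.6% of all genes), and 45% had a distal region, beside 33.6%. Micall2, an effector of Rab13, had 12.6, Rubcn, a regulator of autophagy that binds Rab7, 11.9 and Ehbp1, which binds Rab8 and Rab10, 10.9. Rab11fip4 had 10 distal regions and no promoter region in the 3 sets. Lrrk2, the kinase that phosphorylates several Rab proteins, had 6 distal regions and an open promoter at 5.56 and 7.13, and Plekhm1, which links Rab7 to lysosome fusion, had 5. Sytl1, Sytl5 and Mlph, whose proteins bind Rab27 at secretory granules and melanosomes, had no promoter or distal region in any of the 3 sets. Exph5 and Rims2 of the list had none either. In the conservative set other members of the list did have regions. Unc13d had an open promoter at 5.35, and Sytl2, Sytl3 and Myrip had 1, 2 and 3 distal regions.

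**Figure D5:**
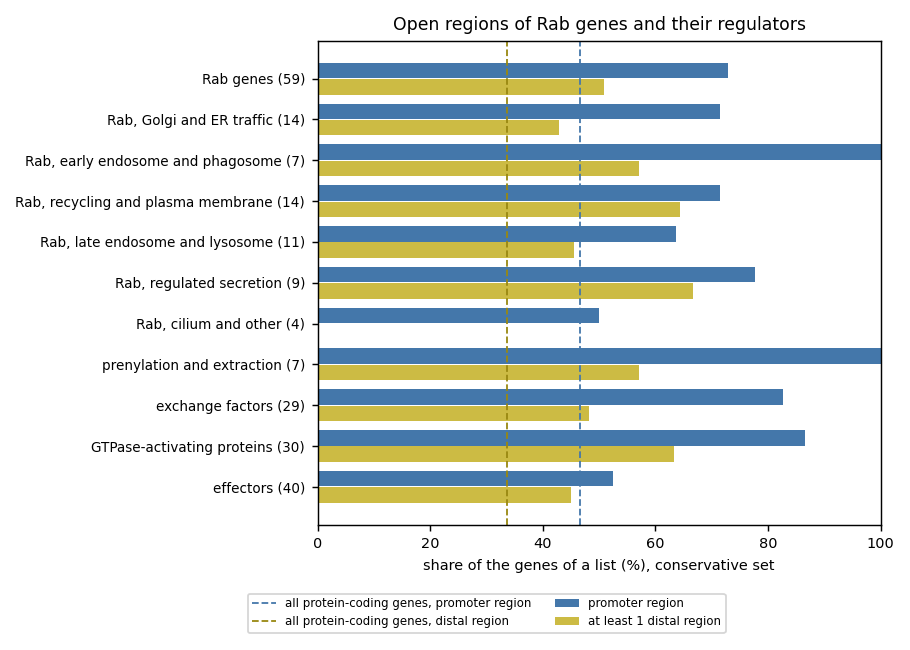
Share of genes with an open promoter (blue) and with at least 1 distal region (yellow) in the conservative set, in percent, for the Rab genes, their 6 role groups and 4 lists of regulators, with the number of genes in brackets. Dashed lines mark all protein-coding genes at 46.6% and 33.6%; early endosome and phagosome Rab genes and prenylation genes reach 100%.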

How the data were processed

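Peak lists of 2 replicates of mouse monocytes (1 group) were used, on mm10 per the labels. The choice of aligner and peak caller is not given in the sources used here. Depth is unknown, so no interval is printed. For every peak the authors deposited a fold enrichment (a linear ratio), a −log10 p and a score, none of which was rescaled. Folds were compared within a list, or between the replicates' pseudoreplicated lists, whose scaling to each other is not stated. Main results use the conservative IDR thresholded set of the authors. Overlapping peaks on chromosomes 1 to 19, X and Y were joined, each region taking the highest fold among its peaks and the summit with the smallest p, and an overlap of 1 bp counted as shared. Gene models came from GENCODE M21 and bases from GRCm38.p6.

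The members, gene lists, motifs and alternatives were chosen with earlier results of these data known. The start used for the CpG ratio was changed to the most upstream one after the values were seen. The motif windows of 50 and 150 bp and the further checks of the replicate comparison were also chosen after seeing the data. No test was made, since there is 1 group of 2 samples: a list is described by its count beside all genes. Genes with values in full were the 8 strongest and 5 weakest promoters by mean over the replicates, genes with over 2 distal regions, genes with no region or a region in 1 replicate only, paralogs that differ in state, and of each regulator list the 3 strongest, the 3 with most distal regions and up to 3 without a region; further members are named to account for all of them. The listed Rab41 and Dennd2b have no protein-coding annotation and were dropped. Assignment was tested on simulated data. Alternatives were other peak sets, each replicate alone in its stricter set, other windows and distances, a minimum fold and basic transcripts. Python 3.11.15, numpy 2.4.6, scipy 1.17.1, pysam 0.24.0 and matplotlib 3.10.9 were used.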

Additional observations from a re-analysis of the deposited data

How the results depend on the processing

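The number of open Rab promoters lay between 33 and 49 over 11 alternatives, against 43, and that of Rab genes with a distal region between 21 and 42, against 30. In each alternative the Rab share lay above that of all genes for both measures. The 55 distal regions became 128 with the replicated peaks, 116 with the pseudoreplicated peaks and 30 with a fold of at least 6. With either replicate left out, they were 29 to 31 in the stricter set of the other, and 77 to 85 in its looser set, so the change cannot be put down to the replicate alone. The median promoter fold of 9.41 became 8.72, 8.91 and 9.99 under the same 3 settings and 8.97 to 9.36 without a replicate, in those stricter sets, where the SD of the replicates' medians was 0.323. A stricter or looser peak set changes which regions enter by its construction. By gene, 31 of the 43 open and 10 of the 16 other promoters kept their state under all 11 alternatives, as did 17 of 30 genes with a distal region. The replicate comparison held 37 genes in the stricter sets, against 44. Within 50 bp of the summit the CCAAT string was found in 13 promoters (28.9%, against 26.2% of all) and the SP1 string in 6 (13.3%, against 8.52%), and within 150 bp in 25 (55.6%, against 40.2%) and 15 (33.3%, against 20.03%). No paired analysis was possible because there is 1 group. Without read counts, what depth limits could not be measured.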
